A study of Mus musculus with 8 samples.

Results

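Histone-modifying enzymes and chromatin remodelers were followed as a set of 44 genes, named one by one and matched by symbol among the 23234 genes listed in each library. All 44 were found, and all 44 passed the filter on low values, at least 1 FPKM in at least 2 libraries. FPKM is the number of sequenced fragments of a gene scaled by transcript length and by the mapped fragments of the library. The set holds 9 histone deacetylases, 5 acetyltransferases, 10 lysine demethylases, 7 genes of methyltransferases and of their core complex, 7 subunits of the SWI/SNF (BAF) remodeler and 6 other remodeling ATPases. Polycomb genes and the writers of H3K9 methylation are outside it.

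RNA-seq was done on pools of whole mouse embryos, with 2 libraries in each of 4 groups. Tet3-null embryos came from oocytes of Zp3-Cre, f/- females, in which a Cre transgene active in growing oocytes deletes the floxed copy of Tet3 and the other copy is null. Wild-type embryos came from oocytes of f/f females, which carry floxed Tet3 on both chromosomes, and the labels do not say whether these females carried Cre. In both genotypes the sperm came from CAST/EiJ males, so every embryo received a paternal Tet3 allele and all embryos were crosses between strains. Fertilization was in vitro, and 2-cell embryos were taken after 30 h in pools of 10 and blastocysts after 96 h in pools of 7. Nothing in the labels ties the paired libraries of a group to different females or days. The p-values therefore reflect the spread among these 8 libraries, and that spread may be technical.

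Histone acetyltransferases add acetyl groups to histone tails and deacetylases remove them. Methyltransferases and lysine demethylases set and erase methyl marks that are read at promoters, enhancers and gene bodies, and remodelers use ATP to slide, evict or exchange nucleosomes. The mouse zygote starts with transcripts and proteins of such enzymes laid down in the oocyte, and its own genome is activated in the 2-cell embryo. By the blastocyst stage the maternal messages have been cleared and the outer trophectoderm and the inner cell mass have formed.

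Tet3, the gene deleted in the oocyte, was at 3.28 and 4.41 FPKM in Tet3-null 2-cell embryos against 10.8 and 7.54 FPKM in wild-type, and at 0.519 and 0.412 FPKM in Tet3-null blastocysts against 0.957 and 0.459 FPKM in wild-type. It was lower in both Tet3-null libraries at the 2-cell stage, without a call (limma adjusted p = 0.0690), and the value covers the whole gene, including exons that the deletion may leave. Read totals are unknown. The commonest ratio of low FPKM values gave depths of 1 to 1.32 with wild-type replicate 1 of each stage set to 1. For Tet3-null 2-cell replicate 2 that depth, 1.02, rests on 17 of 684 low genes, where the other estimates rest on 63 to 333 genes. Of 17 2-cell and oocyte markers, at least 16 reached 1 FPKM in each 2-cell group and at most 2 in each blastocyst group. Of 16 blastocyst markers, 14 reached 1 FPKM in Tet3-null and 16 in wild-type blastocysts, against 12 in 2-cell embryos of each genotype, where their summed level was 1144 to 1734 FPKM and not the 8419.6 to 10182 FPKM of blastocysts. Dppa5a alone was at 896 to 1486 FPKM in 2-cell libraries. Fgf4 went the other way, at 15.1 to 58.9 FPKM in 2-cell and 2.09 to 4.11 FPKM in blastocyst libraries. Nanog overlapped, at 134 to 167 FPKM in 2-cell and 114 to 145 FPKM in blastocyst libraries. Among markers of other cells, Tnfaip6 reached 14.3 to 29.5 FPKM in 2-cell libraries and was the only one of 12 cumulus and granulosa genes at 1 FPKM there, while Amh was listed at 0 in all libraries. The 8 sperm markers summed to 13.3 and 24.0 FPKM in the Tet3-null 2-cell libraries, against 8.27 and 9.03 FPKM in wild-type. The 12 blood and somatic markers summed to 2.87 and 4.72 FPKM there against 7.98 and 9.15 FPKM, with Hbb-b1 listed at 0 throughout. The part of such cells in the 2-cell results was not tested. Tet3-null 2-cell replicate 2 stood apart from the other 2-cell libraries: 7101 genes were listed at 0 in it, against 6080 in Tet3-null replicate 1 and 5549 and 5706 in wild-type. Results that rest on it are given below with and without it.

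The 44 genes were transcribed at very different levels, from Hdac1, the highest on average, at 119.5 to 183 FPKM to Kdm4b at 0.361 to 1.11 FPKM. Their summed FPKM was 1060.0 and 1038 in Tet3-null blastocysts and 1076 and 1083 in those from wild-type oocytes. In 2-cell embryos it was 1024 and 855 in Tet3-null, against 1114 and 1163 in wild-type. In the blastocyst 42 to 44 of the genes reached 1 FPKM per library, and in the 2-cell embryo 39 to 42 did.

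**Figure D1:**
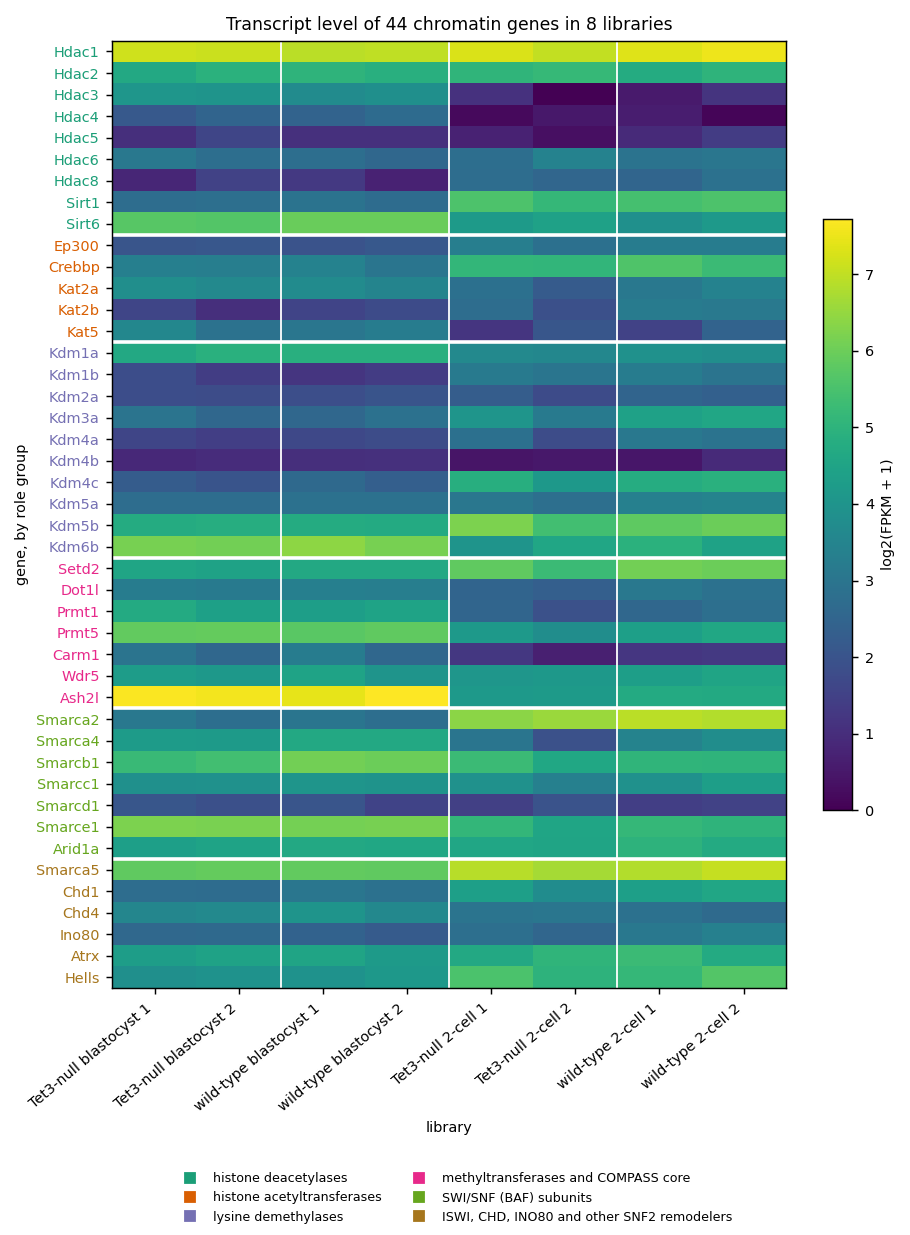
Heat map of log2(FPKM + 1), one row per gene ordered by role and one column per library (2 per group, blastocysts on the left). Ash2l and Sirt6 are brightest in blastocysts, Smarca2 and Sirt1 in 2-cell embryos, and Hdac1 is bright in all 8 libraries.

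The largest differences within the set lay between stages. Blastocysts were compared with 2-cell embryos of the same genotype in a limma fit of log2(FPKM + 1), adjusted over the 13549 genes tested, with a gene called at an adjusted p under 0.05. In Tet3-null embryos 16 genes of the set were higher in blastocysts and 14 lower, where 38.9% and 35.1% of all genes were called. In wild-type embryos 14 were higher and 19 lower, against a background of 35.8% and 38.4%. In either direction 74.0% of all genes were called in Tet3-null and 74.3% in wild-type embryos, so the shares in the set lie near the background. Blastocyst libraries were above 2-cell libraries without overlap for 18 genes of the set in Tet3-null embryos, where 44.8% of all genes were, and below them for 19, where 41.3% were. In wild-type embryos 18 were above, where 43.0% of all genes were, and 22 below, where 46.3% were. The median log2 change of the set was -0.029 in Tet3-null and -0.21 in wild-type embryos, beside 0.087 and -0.077 over all genes tested. Both comparisons use separate libraries, and 27 genes were called in the same direction in both, which is 90.0% of the Tet3-null and 81.8% of the wild-type calls. Over all genes 65.8% were called so in both, or 89.0% of the Tet3-null and 88.6% of the wild-type calls, so the overlap is no feature of the set. Of the 27, 13 were higher and 14 lower in blastocysts. The 13 include Hdac4, which passed the filter through its blastocyst libraries alone. None was called in opposite directions. FPKM is a share of the library, and RNA per embryo was not measured, so fewer cells of a type and less RNA per cell cannot be told apart. When every library was rescaled to the same summed FPKM, the split moved to 13 higher and 23 lower in Tet3-null and to 9 and 25 in wild-type embryos. The shares of all genes were then 31.1% higher with 43.3% lower for Tet3-null embryos, and 26.9% with 47.7% for wild-type ones. That scaling ended the calls of Chd4 in both genotypes, of Dot1l and Hdac5 in Tet3-null and of Kat5, Smarca4, Smarcb1 and Smarce1 in wild-type embryos. Median-of-ratios scaling ended those of Hdac1, Kdm5a and Atrx in wild-type embryos. Exons of Hdac4, Kdm6b, Sirt1, Smarca2 and Smarcd1 also overlap a gene on the opposite strand in the reference annotation, and pseudogenes named for Kat2b, Smarce1 and Smarca5 exist, so the values of these genes may hold reads of others. For Smarca2 the longest overlap is 6 bases, with 4931403E22Rik, which was at 0 to 0.449 FPKM over the 8 libraries. Its part in the Smarca2 values was not tested. Equal summed FPKM set the median of all genes to -0.37 and -0.59.

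**Figure D2:**
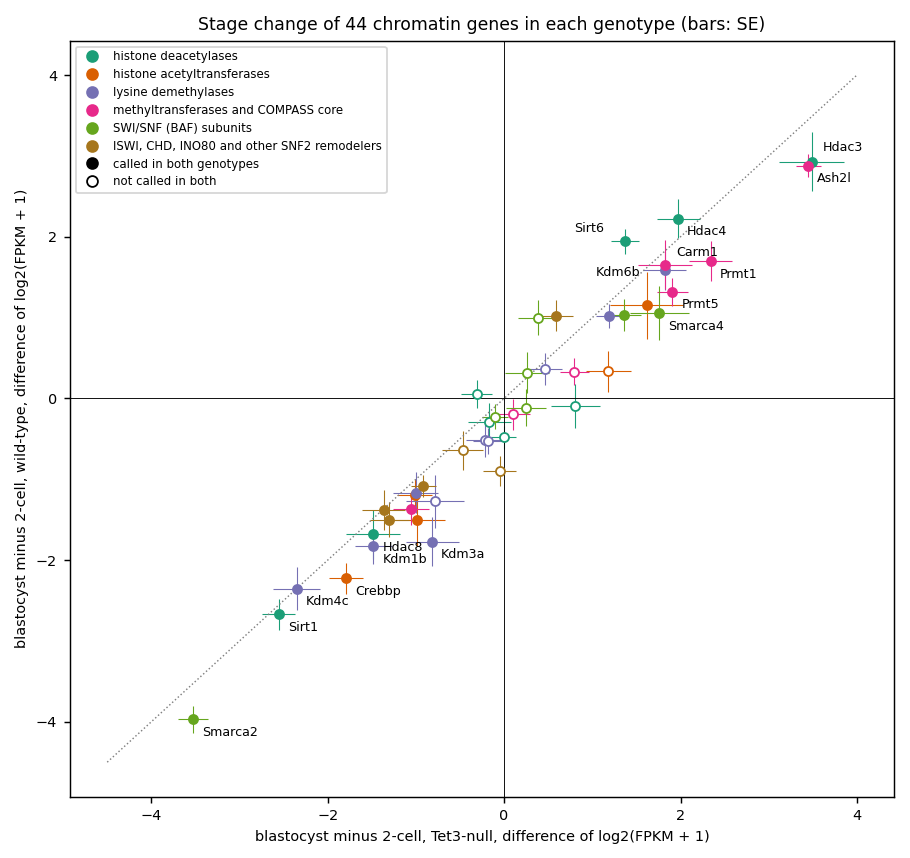
Blastocyst minus 2-cell difference of log2(FPKM + 1) for each gene, Tet3-null on the x axis and wild-type on the y axis, with SE bars from the limma fit. The dotted line marks equal change. Smarca2 lies at the lower left end (-3.53 and -3.97) and Ash2l and Hdac3 at the upper right, and the 27 filled points were called in both genotypes.

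Among the 9 deacetylases, 3 were higher in blastocysts in both genotypes (Hdac3, Hdac4 and Sirt6), 2 were lower in both (Hdac8 and Sirt1), and Hdac5 and Hdac1 were each called in 1 genotype. Of all genes 65.8% were called in the same direction in both genotypes, so the counts by role describe the genes and are no feature of a role. Hdac3, the catalytic subunit of the NCoR and SMRT corepressor complexes, had 15.7 and 15.1 FPKM in Tet3-null blastocysts and 12.2 and 13.5 FPKM in wild-type ones. In 2-cell embryos it had 1.13 and 0 FPKM in Tet3-null pools and 0.474 and 1.24 FPKM in wild-type ones. Every blastocyst library was above every 2-cell library, 1 of which listed it at 0 (log2 change 3.49 in Tet3-null and 2.93 in wild-type embryos; SE 0.37; limma adjusted p = 1.09e-04 and 2.80e-04). Hdac4, a class IIa deacetylase that shuttles between nucleus and cytoplasm, had 3.49 and 4.64 FPKM in Tet3-null blastocysts and 4.54 and 5.49 FPKM in wild-type ones, against 0.155 and 0.421 FPKM in Tet3-null 2-cell embryos and 0.528 and 0.0769 FPKM in wild-type ones. The stages did not overlap (log2 change 1.97 in Tet3-null embryos, limma adjusted p = 2.54e-04, and 2.22 in wild-type embryos, limma adjusted p = 1.45e-04). However, Hdac4 passed the filter through its blastocyst libraries alone, so neither its calls nor the lack of overlap is support for a rise. Sirt6, an NAD-dependent deacetylase of H3K9ac and H3K56ac, averaged 50.3 ± 1.19 FPKM in Tet3-null and 61.3 ± 0.744 FPKM in wild-type blastocysts, against 18.9 ± 1.93 and 15.3 ± 2.19 FPKM in 2-cell embryos of the same genotypes (SD, n = 2 each). It was 2.66-fold and 4.02-fold higher in blastocysts (limma adjusted p = 1.67e-04 and 3.10e-05).

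Sirt1, the NAD-dependent deacetylase that also acts on p53 and other non-histone proteins, had 5.82 and 6.11 FPKM in Tet3-null blastocysts and 6.70 and 5.64 FPKM in wild-type ones, against 46.6 and 34.2 FPKM in Tet3-null 2-cell embryos and 42.8 and 46.4 FPKM in wild-type ones. It was 6.78-fold lower in Tet3-null and 7.23-fold lower in wild-type blastocysts than in 2-cell embryos, and no blastocyst library came near a 2-cell library (log2 change -2.56 in Tet3-null embryos, limma adjusted p = 1.97e-05, and -2.67 in wild-type embryos, limma adjusted p = 1.78e-05). The sirtuins of the set stood in opposite order at the 2 stages, Sirt6 above Sirt1 in every blastocyst library and Sirt1 above Sirt6 in every 2-cell library. Hdac8, an X-linked class I deacetylase known for its action on cohesin, was at 0.680 to 1.89 FPKM in the 4 blastocyst libraries and 4.68 to 6.40 FPKM in the 4 2-cell libraries (log2 change -1.48 in Tet3-null and -1.68 in wild-type embryos, limma adjusted p = 0.00338 and 0.00184). Hdac1 was the most abundant gene of the set in 2-cell embryos. It had 142 and 138 FPKM in Tet3-null blastocysts and 119.5 and 126 FPKM in wild-type ones, against 154 and 129 FPKM in Tet3-null 2-cell embryos and 161 and 183 FPKM in wild-type ones. It was called lower in wild-type blastocysts (log2 change -0.48, limma adjusted p = 0.0172) and not in Tet3-null ones (-0.0065, limma adjusted p = 0.970). The wild-type call was lost without wild-type 2-cell replicate 2 or without either wild-type blastocyst library. Hdac2, its closest relative, had 24.3 and 29.6 FPKM in Tet3-null blastocysts and 31.8 and 28.2 FPKM in wild-type ones, against 32.1 and 35.04 FPKM in Tet3-null 2-cell embryos and 26.2 and 31.6 FPKM in wild-type ones, and neither change was called. Hdac6, the X-linked cytoplasmic tubulin deacetylase, was at 5.004 to 7.60 FPKM in the 4 blastocyst libraries and 5.98 to 9.65 FPKM in the 4 2-cell libraries with no call. Hdac5, a class IIa relative of Hdac4, was at 1.05 to 2.09 FPKM in the 4 blastocyst libraries and 0.236 to 1.61 FPKM in the 4 2-cell libraries, and was called higher in Tet3-null embryos (log2 change 0.81, limma adjusted p = 0.0320) but not in wild-type ones (-0.093). That call was lost without Tet3-null 2-cell or blastocyst replicate 2 and without either wild-type blastocyst library. Hdac5 would not have passed the filter without its blastocyst libraries, so its call is no support for a rise. The difference between the genotypes' stage changes was itself not called for any of the 44 genes.

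Of the 5 acetyltransferases, 3 were lower in blastocysts in both genotypes and 1 was higher in both, where 65.8% of all genes were called alike in both. Crebbp and Ep300 encode CBP and p300, large coactivators that acetylate H3K27 at enhancers. Crebbp had 9.03 and 8.88 FPKM in Tet3-null blastocysts and 9.74 and 7.09 FPKM in wild-type ones, against 33.9 and 33.1 FPKM in Tet3-null 2-cell embryos and 47.9 and 37.9 FPKM in wild-type ones, a 3.74-fold and 5.10-fold lower level in blastocysts (limma adjusted p = 1.24e-04 and 4.47e-05). Ep300 had 3.10 and 3.26 FPKM in Tet3-null blastocysts and 2.95 and 3.38 FPKM in wild-type ones, against 8.84 and 6.23 FPKM in Tet3-null 2-cell embryos and 8.54 and 8.57 FPKM in wild-type ones. It was 2.37-fold and 2.70-fold lower (limma adjusted p = 0.00250 and 0.00110), and Crebbp was above Ep300 in all 8 libraries. Kat2b, which encodes PCAF, had 2.06 and 1.06 FPKM in Tet3-null blastocysts and 2.002 and 2.37 FPKM in wild-type ones, against 5.75 and 2.68 FPKM in Tet3-null 2-cell embryos and 8.21 and 7.78 FPKM in wild-type ones (log2 change -0.99 in Tet3-null and -1.50 in wild-type embryos, limma adjusted p = 0.0257 and 0.00414). Its Tet3-null call was lost without Tet3-null 2-cell replicate 1 and without Tet3-null blastocyst replicate 2. Kat2a, which encodes the SAGA acetyltransferase GCN5, had 13.0 and 11.4 FPKM in Tet3-null blastocysts and 12.3 and 10.1 FPKM in wild-type ones, against 6.22 and 3.67 FPKM in Tet3-null 2-cell embryos and 7.59 and 9.74 FPKM in wild-type ones. It was called higher in Tet3-null blastocysts (log2 change 1.18, limma adjusted p = 0.00382) and had a log2 change of 0.34 in wild-type embryos (limma adjusted p = 0.255). Kat5, which encodes TIP60, was at 6.498 to 10.9 FPKM in the 4 blastocyst libraries and 1.29 to 4.53 FPKM in the 4 2-cell libraries (limma adjusted p = 0.00963 in Tet3-null and 0.0386 in wild-type embryos). Its wild-type call was lost without wild-type 2-cell replicate 1 and without either wild-type blastocyst library, and its Tet3-null call without replicate 1 of either stage. In the reference annotation an exon of Kat5 overlaps one of Rnaseh2c on the opposite strand, and these libraries do not mark strand. Rnaseh2c was at 3.999 to 27.4 FPKM over the 8 libraries.

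The 10 lysine demethylases split into 2 that were higher in blastocysts in both genotypes, Kdm1a and Kdm6b, and 4 that were lower in both, Kdm1b, Kdm3a, Kdm4c and Kdm5b. Over all genes 65.8% were called in the same direction in both. Kdm1a and Kdm1b encode LSD1 and LSD2, flavin-dependent erasers of H3K4 mono- and dimethylation, and LSD2 is known in mouse for its part in setting maternal imprints in the oocyte. Kdm1a had 24.5 and 29.00 FPKM in Tet3-null blastocysts and 28.5 and 28.1 FPKM in wild-type ones, against 11.4 and 10.9 FPKM in Tet3-null 2-cell embryos and 13.9 and 13.0 FPKM in wild-type ones. Kdm1b had 2.53 and 1.67 FPKM in Tet3-null blastocysts and 1.27 and 1.61 FPKM in wild-type ones, against 8.10 and 7.07 FPKM in Tet3-null 2-cell embryos and 8.48 and 6.88 FPKM in wild-type ones. All blastocyst libraries were above all 2-cell libraries for Kdm1a and below them for Kdm1b. The log2 change of Kdm1a was 1.19 in Tet3-null and 1.02 in wild-type embryos (limma adjusted p = 2.82e-04 and 6.42e-04), and that of Kdm1b was -1.48 in Tet3-null and -1.83 in wild-type embryos (limma adjusted p = 5.44e-04 and 1.92e-04). An exon of Kdm1b overlaps one of Dek on the opposite strand in the reference annotation, and Dek moved the same way, at 28.3 to 31.2 FPKM in blastocysts against 107 to 122 FPKM in 2-cell embryos. Its part in the Kdm1b values was not tested. The promoters of the pair are shown because their balance changed so far between stages. They are the 250 bases before the start of each gene, from RefSeq, at chr4:136602724-136602973 on the minus strand and chr13:47043249-47043498 on the plus strand of GRCm38.p6. Capitals mark GC boxes (GGGCGG on either strand) and CCAAT boxes (CCAAT on either strand):
Kdm1a: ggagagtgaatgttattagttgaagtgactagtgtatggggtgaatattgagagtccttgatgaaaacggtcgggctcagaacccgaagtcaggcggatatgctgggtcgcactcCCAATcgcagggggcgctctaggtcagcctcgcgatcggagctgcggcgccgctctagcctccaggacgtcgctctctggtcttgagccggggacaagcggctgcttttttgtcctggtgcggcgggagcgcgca
Kdm1b: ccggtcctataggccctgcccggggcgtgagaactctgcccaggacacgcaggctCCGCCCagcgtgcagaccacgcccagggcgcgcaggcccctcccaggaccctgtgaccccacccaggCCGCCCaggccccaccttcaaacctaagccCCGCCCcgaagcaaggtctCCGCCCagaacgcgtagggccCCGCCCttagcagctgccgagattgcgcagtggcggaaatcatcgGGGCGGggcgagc
The Kdm1a window held a CCAAT box and no GC box, and the Kdm1b window held GC boxes and no CCAAT box, with a G+C content of 59.2% for Kdm1a and 71.6% for Kdm1b.

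Kdm6b encodes JMJD3, an eraser of H3K27 trimethylation. It was at 66.8 to 83.8 FPKM in the 4 blastocyst libraries and 15.1 to 29.3 FPKM in the 4 2-cell libraries, 3.59-fold and 3.06-fold higher in Tet3-null and wild-type blastocysts (limma adjusted p = 3.66e-04 and 7.61e-04). Kdm4c, an eraser of H3K9 and H3K36 trimethylation, had 3.76 and 3.06 FPKM in Tet3-null blastocysts and 5.21 and 4.04 FPKM in wild-type ones, against 28.0 and 16.4 FPKM in Tet3-null 2-cell embryos and 26.3 and 28.9 FPKM in wild-type ones. It was 6.501-fold and 5.97-fold lower in blastocysts (log2 change -2.35 in Tet3-null embryos, limma adjusted p = 1.53e-04, and -2.35 in wild-type embryos, limma adjusted p = 1.60e-04). Kdm4a, of the same family, had 2.04 and 1.72 FPKM in Tet3-null blastocysts and 2.21 and 2.48 FPKM in wild-type ones, against 6.17 and 2.44 FPKM in Tet3-null 2-cell embryos and 7.56 and 6.61 FPKM in wild-type ones and was called lower in wild-type blastocysts (log2 change -1.27, limma adjusted p = 0.00983), with -0.79 in Tet3-null embryos (limma adjusted p = 0.0628). That wild-type call was lost without replicate 1 of either stage. Kdm5b, an eraser of H3K4 trimethylation, had 26.2 and 27.2 FPKM in Tet3-null blastocysts and 25.8 and 25.6 FPKM in wild-type ones, against 72.8 and 40.7 FPKM in Tet3-null 2-cell embryos and 55.6 and 62.3 FPKM in wild-type ones (limma adjusted p = 0.00900 and 0.00461). Its relative Kdm5a had 5.81 and 5.73 FPKM in Tet3-null blastocysts and 6.39 and 6.39 FPKM in wild-type ones, against 7.34 and 6.10 FPKM in Tet3-null 2-cell embryos and 9.24 and 9.99 FPKM in wild-type ones, with a call in wild-type embryos alone (log2 change -0.52, limma adjusted p = 0.0215) that was lost without wild-type 2-cell replicate 2 or either wild-type blastocyst library. Kdm3a, an eraser of H3K9 mono- and dimethylation, was at 4.98 to 6.84 FPKM in the 4 blastocyst libraries and 7.99 to 22.8 FPKM in the 4 2-cell libraries. Its log2 change was -0.82 in Tet3-null and -1.77 in wild-type embryos (limma adjusted p = 0.0411 and 0.00130), and the Tet3-null call was lost when any library other than Tet3-null 2-cell replicate 2 was left out. Kdm2a, of the H3K36 demethylases, was at 2.50 to 3.003 FPKM in the 4 blastocyst libraries and 2.42 to 4.65 FPKM in the 4 2-cell libraries and Kdm4b at 0.847 to 1.11 FPKM in the 4 blastocyst libraries and 0.361 to 0.891 FPKM in the 4 2-cell libraries, without a call.

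Among the 7 methyltransferase genes, 4 were higher in blastocysts in both genotypes (Prmt1, Prmt5, Carm1 and Ash2l) and Setd2 was lower in both. The share of all genes called in the same direction in both was 65.8%. Ash2l, a core subunit that activates the MLL and SET1 methyltransferases of H3K4, had 205 and 193 FPKM in Tet3-null blastocysts and 173 and 211 FPKM in wild-type ones, against 17.2 and 17.4 FPKM in Tet3-null 2-cell embryos and 25.4 and 24.9 FPKM in wild-type ones. No library of one stage approached the other, and the level was 11.5-fold higher in Tet3-null and 7.63-fold higher in wild-type blastocysts (log2 change 3.45 in Tet3-null embryos, limma adjusted p = 1.68e-06, and 2.88 in wild-type embryos, limma adjusted p = 3.88e-06). Wdr5, which sits in the same core complex and binds the histone tail, was at 14.8 to 21.1 FPKM in the 4 blastocyst libraries and 15.7 to 21.9 FPKM in the 4 2-cell libraries, with a log2 change of 0.10 in Tet3-null and -0.20 in wild-type embryos and no call. The 3 arginine methyltransferase genes moved together. Prmt5, which makes symmetric dimethylarginine, averaged 58.1 ± 0.384 FPKM in Tet3-null and 54.8 ± 2.90 FPKM in wild-type blastocysts, against 14.9 ± 3.08 and 21.4 ± 2.37 FPKM in 2-cell embryos (SD, n = 2 each; limma adjusted p = 5.63e-05 and 3.95e-04). Prmt1, the main asymmetric enzyme, averaged 22.8 ± 3.76 and 20.2 ± 1.81 FPKM in blastocysts of the 2 genotypes against 3.77 ± 1.44 and 5.55 ± 0.751 FPKM in 2-cell embryos (limma adjusted p = 1.12e-04 and 6.14e-04). Carm1, known in mouse embryos for H3R26 methylation in blastomeres that give rise to the inner cell mass, was at 4.995 to 8.50 FPKM in the 4 blastocyst libraries and 0.588 to 1.45 FPKM in the 4 2-cell libraries (limma adjusted p = 0.00111 and 0.00187). An exon of Carm1 overlaps one of Yipf2 on the opposite strand, and Yipf2 was also higher in blastocysts, at 28.9 to 38.5 FPKM against 2.61 to 8.11 FPKM in 2-cell embryos. Its part in the Carm1 values was not tested. Setd2, which deposits H3K36 trimethylation in transcribed gene bodies, was at 21.0 to 24.6 FPKM in the 4 blastocyst libraries and 37.6 to 66.1 FPKM in the 4 2-cell libraries (log2 change -1.06 in Tet3-null and -1.37 in wild-type embryos, limma adjusted p = 0.00215 and 6.02e-04). Dot1l, the H3K79 methyltransferase, was at 8.09 to 9.17 FPKM in the 4 blastocyst libraries and 4.06 to 7.54 FPKM in the 4 2-cell libraries and was called higher in Tet3-null embryos alone (log2 change 0.79, limma adjusted p = 0.00335, against 0.33 in wild-type embryos).

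Smarca2 and Smarca4 encode BRM and BRG1, the alternative ATPases of the BAF remodeler. Smarca2 had 7.48 and 5.94 FPKM in Tet3-null blastocysts and 7.07 and 5.88 FPKM in wild-type ones, against 82.8 and 92.6 FPKM in Tet3-null 2-cell embryos and 120.0 and 112 FPKM in wild-type ones. Smarca4 had 18.04 and 17.4 FPKM in Tet3-null blastocysts and 24.3 and 24.5 FPKM in wild-type ones, against 7.08 and 2.78 FPKM in Tet3-null 2-cell embryos and 9.94 and 12.7 FPKM in wild-type ones. Smarca2 was 13.1-fold lower in Tet3-null and 17.9-fold lower in wild-type blastocysts (log2 change -3.53 in Tet3-null embryos, limma adjusted p = 3.00e-06, and -3.97 in wild-type embryos, limma adjusted p = 2.12e-06). Smarca4 was 3.59-fold and 2.15-fold higher (log2 change 1.76 in Tet3-null embryos, limma adjusted p = 0.00226, and 1.05 in wild-type embryos, limma adjusted p = 0.0236), and the stages did not overlap for either gene. The Smarca4 call in wild-type embryos was lost without wild-type 2-cell replicate 1 or either wild-type blastocyst library, and when libraries were rescaled to the same summed FPKM (limma adjusted p = 0.248). The pair exchanged order: Smarca4 was above Smarca2 in all 4 blastocyst libraries, and Smarca2 above Smarca4 in all 4 2-cell libraries. Their promoters, shown because the pair exchanged order, are at chr19:26604910-26605159 and chr9:21615919-21616168, both on the plus strand of GRCm38.p6 (RefSeq, 250 bases before the start, GC boxes in capitals):
Smarca2: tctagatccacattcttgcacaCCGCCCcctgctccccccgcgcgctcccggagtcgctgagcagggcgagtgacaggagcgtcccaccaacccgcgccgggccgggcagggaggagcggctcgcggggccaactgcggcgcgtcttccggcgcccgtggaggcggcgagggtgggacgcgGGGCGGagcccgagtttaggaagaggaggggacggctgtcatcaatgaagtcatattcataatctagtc
Smarca4: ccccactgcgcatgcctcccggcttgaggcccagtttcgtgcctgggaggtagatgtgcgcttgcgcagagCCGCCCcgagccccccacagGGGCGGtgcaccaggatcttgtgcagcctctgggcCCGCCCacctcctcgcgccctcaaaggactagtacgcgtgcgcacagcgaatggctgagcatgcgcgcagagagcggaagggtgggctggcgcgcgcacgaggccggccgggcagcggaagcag
Both windows held GC boxes and neither held a CCAAT box, and their G+C content was 68.4% for Smarca2 and 70.8% for Smarca4.

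The other BAF subunits changed less. Smarce1, which encodes the DNA-binding subunit BAF57, averaged 71.8 ± 1.12 FPKM in Tet3-null and 69.0 ± 1.79 FPKM in wild-type blastocysts, against 28.0 ± 8.08 and 33.3 ± 2.08 FPKM in 2-cell embryos (SD, n = 2 each; limma adjusted p = 6.07e-04 and 0.00251). Smarcb1, the core subunit SNF5, had 36.8 and 40.8 FPKM in Tet3-null blastocysts and 66.3 and 63.0 FPKM in wild-type ones, against 37.4 and 23.3 FPKM in Tet3-null 2-cell embryos and 32.0 and 31.6 FPKM in wild-type ones. It was called higher in wild-type blastocysts (2.03-fold higher, limma adjusted p = 0.00453) and not in Tet3-null ones (log2 change 0.38, limma adjusted p = 0.154). Arid1a, the large subunit BAF250a, was at 19.7 to 24.2 FPKM in the 4 blastocyst libraries and 21.9 to 30.7 FPKM in the 4 2-cell libraries, and Smarcc1, the scaffold BAF155, at 13.6 to 15.3 FPKM in the 4 blastocyst libraries and 9.30 to 19.0 FPKM in the 4 2-cell libraries. Smarcd1, the subunit BAF60a, was the weakest of the 7, at 1.95 to 3.18 FPKM in the 4 blastocyst libraries and 1.67 to 2.92 FPKM in the 4 2-cell libraries, and none of these 3 was called in either genotype.

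Of the 6 other remodelers, Smarca5, Chd1 and Hells were lower in blastocysts in both genotypes, Chd4 was higher in both, and Ino80 and Atrx were called lower in wild-type embryos alone. Beside these stand the 65.8% of all genes called in the same direction in both. Smarca5 encodes SNF2H, the ATPase of ISWI complexes, and had the highest mean of the ATPases of the set in 2-cell embryos, at 56.2 to 58.4 FPKM in blastocyst and 102 to 131 FPKM in 2-cell libraries (log2 change -0.92 in Tet3-null and -1.09 in wild-type embryos, limma adjusted p = 7.22e-04 and 3.13e-04). Hells, which encodes LSH, a remodeler needed for DNA methylation at repeats in mouse, was at 13.3 to 16.4 FPKM in the 4 blastocyst libraries and 30.6 to 49.6 FPKM in the 4 2-cell libraries (limma adjusted p = 0.00170 and 0.00164). Chd1, which binds H3K4 trimethylation and keeps chromatin of embryonic stem cells open, was at 5.71 to 7.23 FPKM in the 4 blastocyst libraries and 12.6 to 22.6 FPKM in the 4 2-cell libraries (limma adjusted p = 0.00128 and 6.44e-04). Chd4, the ATPase of the NuRD complex, was at 10.7 to 14.9 FPKM in the 4 blastocyst libraries and 5.33 to 7.17 FPKM in the 4 2-cell libraries (limma adjusted p = 0.0235 and 0.00192), and its Tet3-null call was lost without Tet3-null 2-cell replicate 1 or either Tet3-null blastocyst library. Ino80 was at 3.65 to 5.17 FPKM in the 4 blastocyst libraries and 4.80 to 9.21 FPKM in the 4 2-cell libraries (log2 change -0.051 in Tet3-null and -0.90 in wild-type embryos, limma adjusted p = 0.819 and 0.00381). Atrx, an X-linked remodeler that deposits the histone variant H3.3 with DAXX, was at 17.6 to 21.7 FPKM in the 4 blastocyst libraries and 24.2 to 37.7 FPKM in the 4 2-cell libraries, with limma adjusted p = 0.109 in Tet3-null and 0.0409 in wild-type embryos. Its wild-type call was lost without wild-type 2-cell replicate 1, without any of the 4 blastocyst libraries and under median-of-ratios scaling.

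The balance within 8 pairs of related genes was compared between stages as the difference of their log2(FPKM + 1) in each library, 4 blastocyst against 4 2-cell libraries of both genotypes, with a two-sided exact permutation test. The smallest value such an exact permutation test can give is p = 0.0286, when the stages do not overlap. It was reached by 7 of the 8 pairs (exact permutation, Benjamini-Hochberg adjusted p = 0.0327 over the 8 pairs). Single genes often separated by stage too. In Tet3-null embryos 44.8% of all genes were higher and 41.3% lower in blastocysts without overlap, and in wild-type embryos 43.0% and 46.3%. The share among other pairs of genes was not computed, so the count of 7 is a description. The log2 ratio of Smarca2 to Smarca4 was -1.53 ± 0.31 in blastocyst and 3.63 ± 0.69 in 2-cell libraries (SD, n = 4 each). For Kdm1a over Kdm1b it was 3.38 ± 0.37 in blastocyst and 0.62 ± 0.16 in 2-cell libraries. Kat2a over Kat2b gave 2.16 ± 0.36 in blastocyst and 0.16 ± 0.20 in 2-cell libraries, so that GCN5 and PCAF transcripts were about level in 2-cell embryos. Hdac4 over Hdac5 gave 1.26 ± 0.33 in blastocyst and -0.48 ± 0.61 in 2-cell libraries. Hdac4 passed the filter through its blastocyst libraries alone, and Hdac5 would not have passed it without its blastocyst libraries. This pair's p is therefore no support for a change, and 6 other pairs reached the floor. The pairs Ep300 over Crebbp, at -1.21 ± 0.23 in blastocyst and -2.11 ± 0.23 in 2-cell libraries, Kdm4a over Kdm4c, at -0.68 ± 0.19 in blastocyst and -2.001 ± 0.27 in 2-cell libraries, and Kdm5a over Kdm5b, at -1.94 ± 0.11 in blastocyst and -2.67 ± 0.32 in 2-cell libraries, kept the same gene ahead at both stages by a smaller margin in blastocysts. Hdac1 over Hdac2 was at 2.17 ± 0.26 in blastocyst and 2.29 ± 0.33 in 2-cell libraries, a difference of -0.12 within the spread (exact permutation p = 0.514). The members of a pair share a library, and both genotypes of a stage were pooled.

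**Figure D3:**
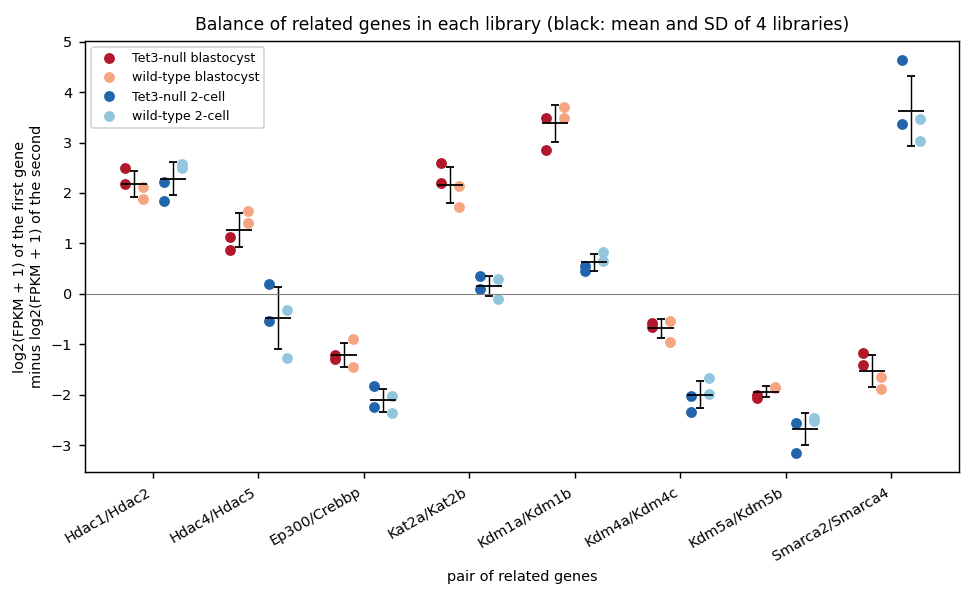
Difference of log2(FPKM + 1) between the first and second gene of 8 pairs, 1 point per library, with the mean and SD of the 4 libraries of each stage in black. Blastocyst and 2-cell libraries separate in every pair other than Hdac1/Hdac2, and Smarca2/Smarca4 changes sign.

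Promoter windows like those printed were at hand for 34 of the 44 genes. Their median G+C content was 61%, against 52% over all 27025 genes in the table, and their ratio of observed to expected CpG was 0.82 against 0.378. A GC box was in 24 of the 34 windows, where 32.9% of all windows held one. The 8 windows of genes higher in blastocysts in both genotypes held a GC box in 4 and a CCAAT box in 5. The 13 windows of genes lower in both held them in 10 and 3, and 34.5% of all windows held a CCAAT box. TATAAA was in 1 of the 34 windows against 13.0% of all windows, CACGTG in 3 against 6.05%, and TAATCC in 1 against 6.38%, both strands searched. These are counts of letters, given without a test.

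Between genotypes at the 2-cell stage, no gene of the 44 was called in the limma fit, where 2.72% of all genes were called, 0.613% with higher and 2.1% with lower levels in Tet3-null pools. The lowest adjusted p was 0.0964, and 11 of the 44 had an unadjusted p under 0.05, all with a lower mean in Tet3-null embryos. Over all genes 23.7% had such a p, so the count in the set is near the background. The estimate was negative for 39 genes and positive for 5, beside 66.7% negative over all genes tested. The median log2 change was -0.33, beside -0.17 over all genes. Both Tet3-null libraries were below both wild-type libraries for 21 of the 44 genes, where 34.9% of all genes did so, and above both for 3 genes (Hdac2, Sirt6 and Chd4), where 12.6% did so. Median-of-ratios scaling, which brought the median of all genes to 0.017, left 27 negative estimates, a median of -0.10 and 9 genes lower without overlap. Under it 47.5% of all estimates were negative and 19.8% of all genes were lower without overlap. In the set 5 genes were then higher without overlap, where 24.4% of all genes were.

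For Smarca4, which encodes BRG1, values were 7.08 and 2.78 FPKM in Tet3-null against 9.94 and 12.7 FPKM in wild-type 2-cell embryos. Both Tet3-null libraries were below both wild-type libraries, replicate 2 the lowest (log2 change -1.15, SE 0.34, 95% interval -1.94 to -0.36, limma adjusted p = 0.107). Its alternative, Smarca2, had 82.8 and 92.6 FPKM in Tet3-null against 120.0 and 112 FPKM in wild-type (log2 change -0.40, interval -0.80 to -0.00077, limma adjusted p = 0.210). Ash2l had 17.2 and 17.4 FPKM in Tet3-null against 25.4 and 24.9 FPKM in wild-type. The libraries of each genotype were nearly level, and the groups did not overlap (log2 change -0.51, SE 0.14, interval -0.85 to -0.18, limma adjusted p = 0.0964). Dot1l had 4.64 and 4.06 FPKM in Tet3-null against 7.54 and 6.43 FPKM in wild-type (log2 change -0.58, interval -0.96 to -0.19, limma adjusted p = 0.102). Setd2 had 56.4 and 37.6 FPKM in Tet3-null against 66.1 and 62.7 FPKM in wild-type, and Prmt5 17.1 and 12.7 FPKM in Tet3-null against 19.7 and 23.1 FPKM in wild-type. All 7 methyltransferase genes had a negative estimate, with a median of -0.49, beside 66.7% negative and a median of -0.17 over all genes.

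All 10 demethylases had a negative estimate too (median -0.37), where 66.7% of all genes did (median -0.17). In Tet3-null replicate 1 alone, Kdm1b, Kdm4c and Kdm5b were above the wild-type mean, by 0.074, 0.017 and 0.30 log2 units. The other demethylases were below it in both Tet3-null libraries. Under median-of-ratios scaling 12 of the 44 estimates changed sign. Kdm3a had 15.3 and 7.99 FPKM in Tet3-null against 20.6 and 22.8 FPKM in wild-type (log2 change -0.90, SE 0.30, interval -1.61 to -0.19, limma adjusted p = 0.136). Here too Tet3-null replicate 2 was the lowest library, and replicate 1 lay closer to wild-type. Kdm1b was level between genotypes, at 8.10 and 7.07 FPKM in Tet3-null against 8.48 and 6.88 FPKM in wild-type (log2 change -0.012, interval -0.52 to 0.49). Among acetyltransferases, Kat2a had 6.22 and 3.67 FPKM in Tet3-null against 7.59 and 9.74 FPKM in wild-type (log2 change -0.73, SE 0.25, interval -1.32 to -0.13, limma adjusted p = 0.145), and Kat2b 5.75 and 2.68 FPKM in Tet3-null against 8.21 and 7.78 FPKM in wild-type. The deacetylases stood nearest to 0, with 3 of 9 positive and a median of -0.04. Sirt6 had 17.6 and 20.3 FPKM in Tet3-null against 13.7 and 16.8 FPKM in wild-type (log2 change 0.30, interval -0.074 to 0.67), Hdac2 32.1 and 35.04 FPKM in Tet3-null against 26.2 and 31.6 FPKM in wild-type and Hdac1 154 and 129 FPKM in Tet3-null against 161 and 183 FPKM in wild-type. Hdac4 had an estimate of -0.0021 with libraries that overlapped. Among the remodelers, Ino80 had 6.003 and 4.80 FPKM in Tet3-null against 7.46 and 9.21 FPKM in wild-type (log2 change -0.54, limma adjusted p = 0.148), while Chd4 had 6.82 and 7.17 FPKM in Tet3-null against 6.34 and 5.33 FPKM in wild-type. None of these genes was called. Each 95% interval is that of a single gene and is not adjusted over the 13549 genes tested. An interval that leaves out 0 is therefore no call.

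**Figure D4:**
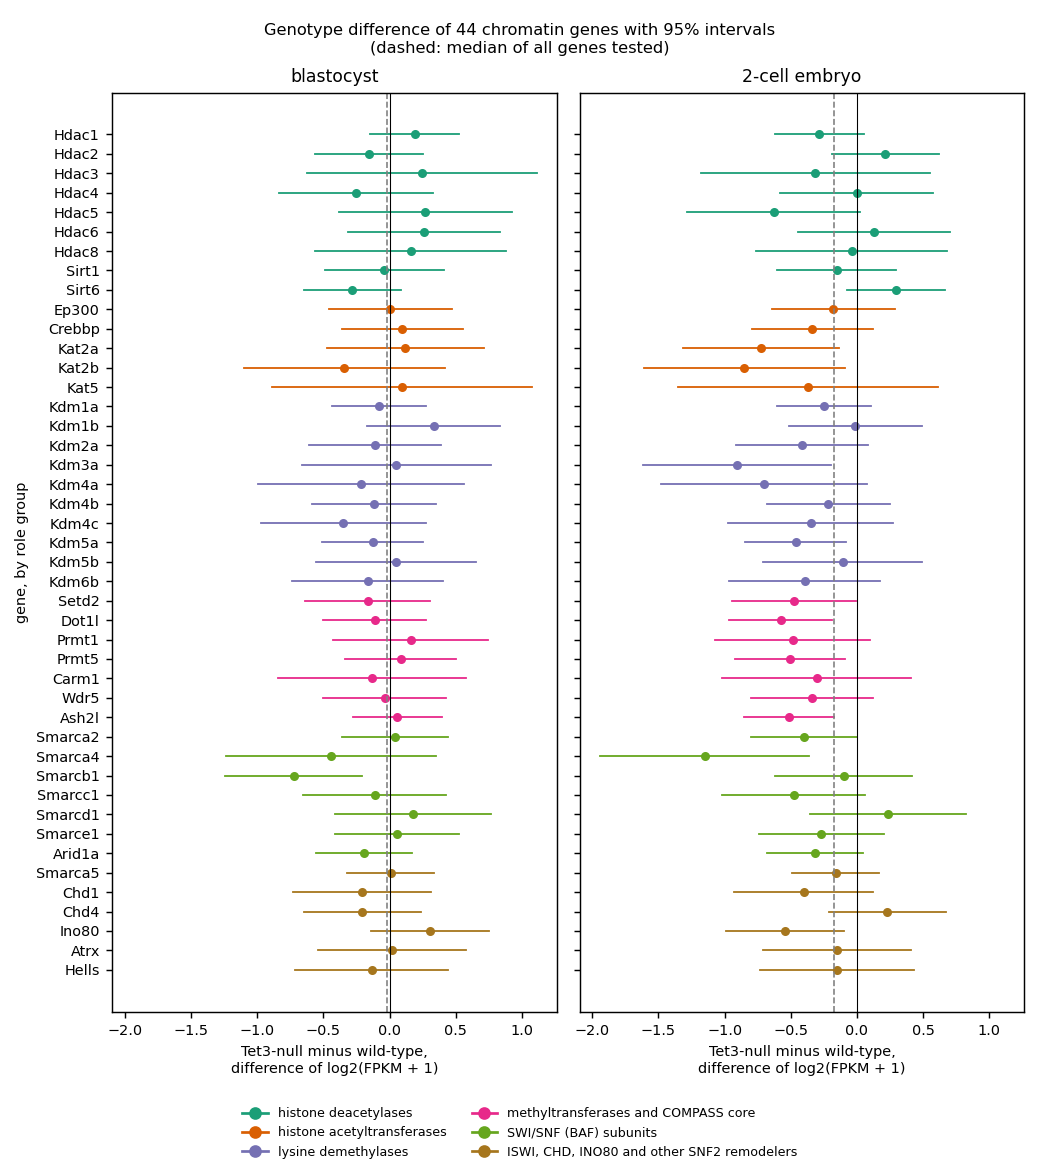
Tet3-null minus wild-type difference of log2(FPKM + 1) for each gene with its 95% interval, blastocysts left and 2-cell embryos right. The dashed line is the median of all genes tested (-0.016 in blastocysts and -0.17 in 2-cell embryos). In 2-cell embryos 39 of 44 points lie below 0, and in blastocysts 23 do.

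The distance below wild-type at the 2-cell stage was wider in Tet3-null replicate 2, which held more genes at 0, than in replicate 1. Against the wild-type mean, 36 of the 44 genes were lower in replicate 2 with a median difference of -0.43, and 31 were lower in replicate 1 with a median of -0.17. Of all genes 63.5% were lower in replicate 2 and 64.1% in replicate 1. Over all genes tested the medians were -0.20 in replicate 2 and -0.14 in replicate 1. In replicate 2 the genes Smarca4, Kdm3a, Kat2b, Kdm4a and Kat2a were at least 1 log2 unit below the wild-type mean, and in replicate 1 no gene of the set was. Of all genes 11.4% were so far below in replicate 2, about the same share as in the set, and 4.18% in replicate 1. Smarca4 differed by -1.70 in replicate 2 and by -0.60 in replicate 1. Without replicate 2, no gene was called and 31 estimates were negative, with a median of -0.17 beside -0.14 over all genes. Without replicate 1, replicate 2 is the only Tet3-null library and is assumed to vary like the other groups. In that fit 16 of the 44 genes were called, all lower, where 19.2% of all genes were called lower and 6.33% higher. The 16 were the demethylases Kdm2a, Kdm3a, Kdm4a, Kdm4c, Kdm5a and Kdm5b, the methyltransferases Setd2, Dot1l, Prmt1 and Prmt5, the acetyltransferases Kat2a and Kat2b, the BAF subunits Smarca4, Smarcc1 and Smarce1, and Chd1. Smarca4 had a log2 change of -1.70 there (limma adjusted p = 0.00456) and Setd2 of -0.76 (limma adjusted p = 0.0109).

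**Figure D5:**
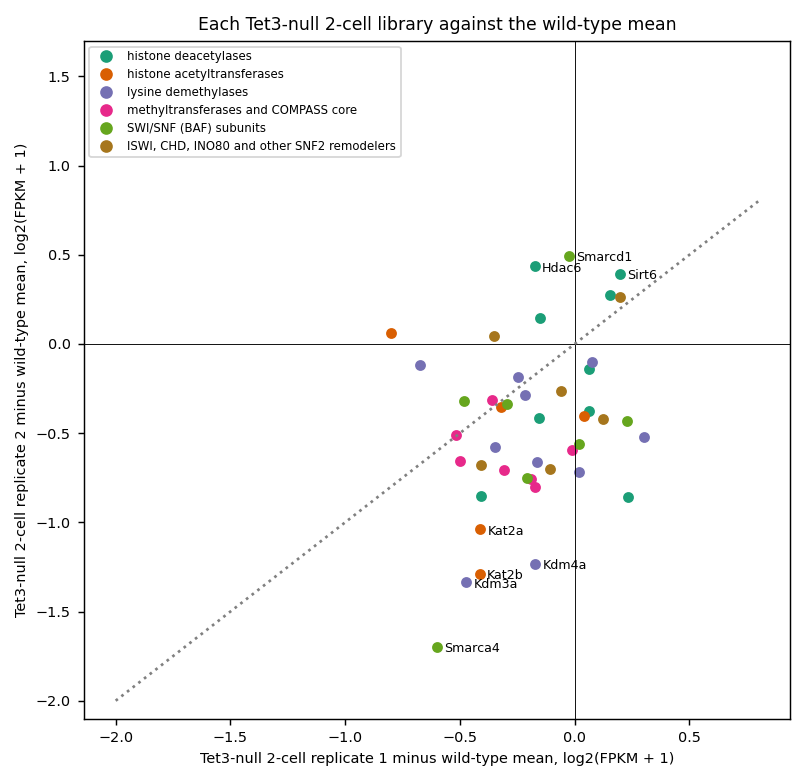
Difference of log2(FPKM + 1) from the wild-type 2-cell mean for each gene, Tet3-null replicate 1 on the x axis and replicate 2 on the y axis. The dotted line marks equal differences. Smarca4, Kdm3a, Kat2b, Kdm4a and Kat2a are at least 1 unit below the wild-type mean in replicate 2 and less than 1 unit below it in replicate 1.

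In blastocysts the genotypes were closer. None of the 44 genes was called, where 0.0664% of all genes were called (0.0148% higher and 0.0517% lower), and 1 of the 44 had an unadjusted limma p under 0.05, beside 5.46% of all genes. The median log2 change was -0.038, beside -0.016 over all genes, with 21 positive and 23 negative estimates. Smarcb1 had 36.8 and 40.8 FPKM in Tet3-null against 66.3 and 63.0 FPKM in wild-type blastocysts. Both Tet3-null libraries were well below both wild-type libraries, 1.67-fold lower on average (log2 change -0.72, SE 0.22, interval -1.24 to -0.21, limma adjusted p = 0.706). At the 2-cell stage the same gene had 37.4 and 23.3 FPKM in Tet3-null against 32.0 and 31.6 FPKM in wild-type, with overlapping libraries. Smarca4 had 18.04 and 17.4 FPKM in Tet3-null against 24.3 and 24.5 FPKM in wild-type (log2 change -0.44, interval -1.23 to 0.35, limma adjusted p = 1). Its Tet3-null libraries were below the wild-type ones at both stages, as were those of Kdm2a, Kdm4a, Kdm5a, Setd2, Dot1l, Arid1a and Chd1. Of all genes 34.9% were lower without overlap at the 2-cell stage and 25.3% in blastocysts. The share lower at both stages was not computed. Sirt6 had 51.2 and 49.5 FPKM in Tet3-null against 60.8 and 61.8 FPKM in wild-type, below wild-type here and above it at the 2-cell stage. Hdac1 had 142 and 138 FPKM in Tet3-null against 119.5 and 126 FPKM in wild-type, above wild-type here and below it at the 2-cell stage, and Ash2l 205 and 193 FPKM in Tet3-null against 173 and 211 FPKM in wild-type, with overlapping groups. Tet3-null libraries were lower without overlap for 14 genes, beside 25.3% of all genes, and higher for 8, beside 19.0%.

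The difference between the genotype effects in blastocysts and in 2-cell embryos was not called for any of the 44 genes, where 0.14% of all genes were called, 0.0517% higher and 0.0886% lower. An unadjusted limma p under 0.05 was reached by 5 genes, beside 14.4% of all genes, a share no smaller than that of the set. They were Ino80 (difference 0.85, limma adjusted p = 0.246), Kat2a (0.85), Ash2l (0.57), Hdac1 (0.48) and Sirt6 (-0.58), the last with the opposite sign. The estimate was positive for 38 of the 44 genes, with a median of 0.30 beside 0.13 over all genes. Without Tet3-null 2-cell replicate 2 the median was 0.11. Without replicate 1 the 4 genes Smarca4, Kdm3a, Prmt5 and Kat2a were called higher, where 9.51% of all genes were called higher and 3.06% lower, so their number is near the background.

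The set holds 3 X-linked genes (Hdac6, Hdac8 and Atrx). The labels do not give the sex of the embryos, and the Y-linked demethylase genes Uty and Kdm5d differed between libraries. Uty had 3.53 and 0.0252 FPKM in Tet3-null against 4.92 and 4.78 FPKM in wild-type 2-cell embryos, and 2.34 and 1.90 FPKM in Tet3-null against 1.54 and 1.11 FPKM in wild-type blastocysts. Kdm5d had 0.833 and 0 FPKM in Tet3-null against 1.41 and 0.617 FPKM in wild-type 2-cell embryos and 1.67 and 1.57 FPKM in Tet3-null against 0.735 and 0.834 FPKM in wild-type blastocysts. Uty was almost missing from Tet3-null 2-cell replicate 2, and both genes were higher in both Tet3-null than in both wild-type blastocyst libraries. Atrx had 24.2 and 32.1 FPKM in Tet3-null against 37.7 and 25.7 FPKM in wild-type 2-cell embryos, Hdac6 5.98 and 9.65 FPKM in Tet3-null against 6.65 and 7.11 FPKM in wild-type, and Hdac8 5.77 and 4.88 FPKM in Tet3-null against 4.68 and 6.40 FPKM in wild-type. For Atrx and Hdac8 the groups overlapped at the 2-cell stage, and for Hdac6 Tet3-null replicate 2 was the highest library. The part of sex makeup in the results on the 44 genes was not tested.

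Genes of the same pathways outside the set were read from 7 lists with 176 entries, of which 162 passed the filter. At the 2-cell stage 2 of the 162 were called, 1 in each direction, where 2.72% of all genes were called, so their number is no feature of the lists. Dpy30, the H3K4 methyltransferase subunit that docks onto ASH2L, had 899.7 and 1252 FPKM in Tet3-null against 509 and 533 FPKM in wild-type 2-cell embryos. It was 2.06-fold higher in Tet3-null embryos without overlap (log2 change 1.03, SE 0.17, limma adjusted p = 0.0378), beside the Ash2l values given above. Ing5, a reader of H3K4 trimethylation in acetyltransferase complexes, had 2.03 and 1.68 FPKM in Tet3-null against 6.84 and 4.32 FPKM in wild-type (log2 change -1.18, SE 0.22, limma adjusted p = 0.0460). Neither call was firm. Of 17 alternatives Dpy30 passed in 7 and Ing5 in 5, with limma adjusted p of up to 0.376 and 0.382 and no change of sign. The Dpy30 call was lost without any 1 of the 6 libraries other than the Tet3-null 2-cell pair, and the Ing5 call without any 1 library other than Tet3-null 2-cell replicate 1. None of the 162 was called in blastocysts, where 0.0664% of all genes were. The median log2 change of the 162 was -0.24 at the 2-cell stage, between that of the 44 genes and that of all genes, and -0.055 in blastocysts.

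Between stages, 59 of the 162 were higher and 51 lower in Tet3-null blastocysts, and 49 higher and 58 lower in wild-type ones. The shares of all genes are those given for the set, 38.9% higher and 35.1% lower for Tet3-null embryos and 35.8% with 38.4% for wild-type ones, and the 162 lie near or below them. The counts of each list are descriptions, without a test. Of the bromodomain readers, 1 of 11 were higher and 8 lower in Tet3-null blastocysts, and 1 higher and 8 lower in wild-type ones. Brdt, the testis and oocyte member of the BET family, was at 1.42 to 2.35 FPKM in blastocyst and 383 to 549.9 FPKM in 2-cell libraries, and the 1 higher gene, Brd3, was at 23.0 to 27.5 FPKM in blastocyst and 2.51 to 11.2 FPKM in 2-cell libraries. Of other H3K4, H3K36, H4K20 and arginine methyltransferase genes, 14 of 28 were higher and 7 lower in Tet3-null blastocysts, and 12 higher and 6 lower in wild-type ones. Prmt7 was at 70.1 to 84.5 FPKM in blastocyst and 4.16 to 5.27 FPKM in 2-cell libraries and Prmt6 at 2.54 to 3.51 FPKM in blastocyst and 13.5 to 26.9 FPKM in 2-cell libraries, so these arginine methyltransferases moved in opposite directions. Of other NuRD, ISWI, CHD and INO80 factors, 21 of 47 were higher and 10 lower in Tet3-null blastocysts, and 16 higher and 15 lower in wild-type ones. Ruvbl2, a helicase subunit shared by INO80 and TIP60 complexes, was at 416 to 463 FPKM in blastocyst and 8.27 to 17.1 FPKM in 2-cell libraries, and Gatad2b of NuRD at 5.93 to 7.96 FPKM in blastocyst and 21.2 to 42.1 FPKM in 2-cell libraries. Of other SWI/SNF genes, 6 of 18 were higher and 7 lower in Tet3-null blastocysts, and 5 higher and 8 lower in wild-type ones, with Bcl7c at 3.34 to 5.001 FPKM in blastocyst and 125 to 167 FPKM in 2-cell libraries. Actb, the actin that also sits in BAF, was at 12309 to 14058 FPKM in blastocyst and 585 to 627 FPKM in 2-cell libraries.

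Of other deacetylases and corepressors, 6 of 18 were higher and 7 lower in Tet3-null blastocysts, and 6 higher and 8 lower in wild-type ones. Sirt2, a mainly cytoplasmic sirtuin, was at 21.3 to 28.5 FPKM in blastocyst and 0.373 to 1.19 FPKM in 2-cell libraries, and Sap30, a subunit of the SIN3 corepressor, at 1.48 to 3.90 FPKM in blastocyst and 53.6 to 76.5 FPKM in 2-cell libraries. Of other acetyltransferases and their cofactors, 8 of 26 were higher and 8 lower in Tet3-null blastocysts, and 7 higher and 8 lower in wild-type ones. Hat1, which acetylates newly made histone H4 before it is assembled, was at 437 to 514 FPKM in blastocyst and 32.6 to 48.0 FPKM in 2-cell libraries, and Epc2, a TIP60 complex subunit, at 2.59 to 3.55 FPKM in blastocyst and 21.1 to 26.9 FPKM in 2-cell libraries. Of other demethylases, 3 of 14 were higher and 4 lower in Tet3-null blastocysts, and 2 higher and 5 lower in wild-type ones. The gene listed as Jhdm1d, now Kdm7a, was at 1.90 to 2.19 FPKM in blastocyst and 26.7 to 30.8 FPKM in 2-cell libraries and Kdm3b at 11.5 to 16.1 FPKM in blastocyst and 1.62 to 2.71 FPKM in 2-cell libraries. Kdm3a and Kdm3b, which encode erasers of the same H3K9 marks, ran in opposite directions between stages in both genotypes.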

How the data were processed

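Values are the FPKM that the authors deposited, 1 file per library, made from alignments to mm9. Cufflinks 2.2.0, Bowtie2 2.1.0 and TopHat2 2.0.10 are named in the submitters' processing notes, and the sources used here give no settings or gene annotation. Per the labels' protocols, cDNA was amplified with a SMARTer low-input kit and the library kit keeps no strand information. Genes were matched by symbol. Genes reaching 1 FPKM in 2 or more libraries (13549) were fitted as log2(FPKM + 1) in limma 3.58.1 (R 4.3.3), with 4 group means over the 8 libraries and trended variance moderation (residual degrees of freedom 4, prior 3.07). All tests were two-sided. Benjamini-Hochberg adjustment was over all genes in limma, and over 8 pairs in the permutation tests. An adjusted p of a single gene comes from this fit unless its sentence names another scaling, a left-out library or the alternatives. Fold changes are ratios of mean FPKM, and log2 changes on the log2(FPKM + 1) scale understate changes of weak genes. A permutation test of 2 against 2 libraries cannot go below 0.333 and was not used. The 44 genes, the lists, the pairs and the tests were chosen with earlier results of these data known. Named genes are all 44, list genes called between genotypes, and the list genes with the largest rise and fall in wild-type embryos. Promoters, chromosomes and exon overlaps come from RefSeq and GENCODE on GRCm38, another build than the files', so no coordinate of the deposited values is given. Of the 176 list entries 173 were matched, 20 by an older symbol.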

Additional observations from a re-analysis of the deposited data

How the results depend on the processing

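Every stage call of the 44 genes was recomputed under 17 alternatives. In Tet3-null embryos 24 of the 30 called genes passed in each alternative that tested them, and in wild-type embryos 24 of 33 did. 27 of 508 and 33 of 560 recomputed calls were lost, and no called change turned its sign. The cause was not tested. The number of called genes ranged from 26 to 30 in Tet3-null and from 27 to 34 in wild-type embryos when 1 library was left out. Equal summed FPKM moved the median stage change to -0.58 in Tet3-null and -0.80 in wild-type embryos, since it shifts all genes. Quantile normalization gave -0.20 in Tet3-null embryos. Between genotypes at the 2-cell stage the median was -0.10 with median-of-ratios scaling and -0.16 with quantile normalization, and 12 and 9 of the 44 estimates then changed sign. In blastocysts leaving 1 library out gave medians of -0.10 to -0.019, and with median-of-ratios scaling it was 0.012. The difference of genotype effects had a median of 0.087 with median-of-ratios scaling and of 0.11 to 0.44 with 1 library left out, and 0 to 4 genes called. At the 2-cell stage 0 to 16 genes were called and the median was -0.43 to -0.17 with 1 library left out. Apart from the fit without Tet3-null 2-cell replicate 1, no alternative called any of the 44 between genotypes.

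Over all genes, the 83 higher and 285 lower calls at the 2-cell stage became 83 and 64 with median-of-ratios scaling, 94 and 104 with quantile normalization, 1 and 2 in the 2-cell libraries alone, 8 to 3453 in sum with 1 library left out, and 12 and 19 with the replicate block. Same-numbered replicates did not deviate together (correlations of -0.0756 to 0.0184). The labels do not say whether a number stands for a shared day or collection, and this was not tested. The replicate block left 30 Tet3-null and 32 wild-type stage calls in the set, and 0 between genotypes. Medians in the block were those of the fit without it, -0.029 and -0.21 for the stage changes. The ratios within pairs are nearly fixed under any scaling of a library, so that scalings say nothing of their stability. Leaving out 1 library (4 against 3, which cannot go below 0.0571 and was not tested) gave -5.35 to -4.82 for Smarca2/Smarca4 and 2.65 to 2.93 for Kdm1a/Kdm1b. With 2 libraries a group and unknown read totals, small differences are not detectable. The alternatives for the counts without overlap and for Dpy30 and Ing5 were chosen after seeing the data.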
